A study of Mus musculus with 6 samples.

Results

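The histone cluster genes are the genes of the count table whose symbol begins with Hist1h, Hist2h, Hist3h or Hist4h, and 67 of 32285 genes met this rule. They comprised 6 genes for linker histone H1, 18 for H2A, 18 for H2B, 12 for H3 and 13 for H4. By the annotation, 54 lie in the Hist1 cluster on chromosome 13, 10 in the Hist2 cluster on chromosome 3, 2 in Hist3 on chromosome 11 and 1, Hist4h4, on chromosome 6 (mm10).

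The study asked how striatal astrocytes change as they mature. Male wild type C57BL/6 mice were used throughout, at postnatal day 3 (P3) or as adults of 3 months (3m), with no treatment and no transgene. Cells of dissected striatum, the subventricular zone excluded, were enriched with magnetic beads against the astrocyte surface antigen ACSA2, and each preparation pooled several animals. There were 3 droplet-based 3′ end single-cell RNA-Seq libraries at each age, made from polyadenylated RNA, each from a separate preparation by the study's account. Library totals ranged from 5471573 to 37795021 unique molecular identifiers (UMIs, each standing for a captured RNA molecule), and 37 barcode sequences occurred in more than 1 library. Summed markers of astrocytes were highest in AST_3m_5, of oligodendrocytes in ODC_10, of microglia in MIC_16 and of neurons in NEU_22, whereas those of pericytes were higher in the unidentified LOW_21 than in PER_6, named for pericytes by the authors, whose leading genes (Acta2, Mgp, Tagln and Myh11 among them) are mostly known from smooth muscle, and END_12 led with haemoglobin genes. P3 replicate 3 held 983 of the 1034 P3 cells of AST_P3_4 and 346 of 349 of END_12.

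Histones package DNA into nucleosomes: H2A, H2B, H3 and H4 form the core around which DNA winds, and H1 binds the linker DNA between cores. Most genes of the clusters are replication-dependent. Their transcription rises in S phase, when new DNA must be packaged, and their mRNAs end in a conserved stem-loop bound by the protein Slbp in place of a poly(A) tail. Some members are also known to give longer polyadenylated transcripts outside S phase, and libraries made by poly(A) capture see the tailed forms.

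The stem-loop was searched for first because it is what sets these mRNAs apart. A 16-base loop of the histone form was found in an annotated coding transcript of 44 of the 67 members, against 57 of 21901 coding genes of the annotation in all (0.26%). The loop is shown in capitals for the most counted members and for members that differed between ages, as DNA letters with up to 5 bases on either side.
Hist1h1e: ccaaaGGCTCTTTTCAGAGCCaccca
Hist1h1c: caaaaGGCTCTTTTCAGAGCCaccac
Hist1h2ae: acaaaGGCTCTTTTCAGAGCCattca
Hist1h2ap: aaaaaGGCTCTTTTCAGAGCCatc
Hist2h2ac: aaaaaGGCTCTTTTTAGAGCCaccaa
Hist1h3e: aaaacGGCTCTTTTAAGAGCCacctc
Hist1h4d: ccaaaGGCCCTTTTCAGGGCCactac
Hist1h4h: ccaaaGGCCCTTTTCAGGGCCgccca
Hist1h4i: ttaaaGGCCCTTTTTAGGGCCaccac
Hist2h4: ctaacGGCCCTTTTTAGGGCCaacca
The form in Hist1h1e was shared by 26 members of H1, H2A, H2B and H3, and the form in Hist1h4d by 7 H4 members. In 41 of the 44, the annotated transcript ran on for more than 20 bases after the loop, and in 3, Hist1h2ap among them, it ended within 20. The letters AATAAA, the usual poly(A) signal, stood in the last 50 bases of a transcript of 14 members. No loop was found in the annotated transcripts of Hist1h1b (chr13:21779883-21780625, minus strand) and of Hist1h2bc (chr13:23684199-23692908, plus strand), the members with most UMIs. The former has 1 exon of 743 bases, and the latter has 2 exons in a transcript of 1156 bases. Some members with no loop found have short annotated transcripts, such as Hist1h4k (312 bases) and Hist1h2bn (381 bases). Only annotated bases were searched, so a loop past an annotated end would be missed.

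Promoter windows of 300 bases around the annotated start (RefSeq, GRCm38.p6) matched 61 members. CCAAT on either strand was in the window of all 6 H1, 17 H2A, 16 H2B and 10 H3 members matched, but of 3 of 12 H4 members, and in 37.9% of 27025 windows of all genes. TATAAA was in 57.4% of members and 14.2% of all windows. The octamer ATTTGCAT was in 7 H2A and 6 H2B members, 21.3% of members in all, against 1.75% of all windows. The H1 element AAACACA was in 5 of 6 H1 members and 7.14% of all windows. Windows of 4 members are shown, 5′ to 3′ on the strand of the gene, with matches to these letters on either strand in capitals. All 4 members had their highest level in GPC_8, a cluster of cycling cells described below. In astroglial cells with few cell cycle UMIs, Hist1h1b and Hist1h2ae were lower at 3m, and Hist1h2ac and Hist1h4h higher. The windows span chr13:21780576-21780875 (minus), chr13:23571171-23571470 (minus), chr13:23683910-23684209 (minus) and chr13:23530794-23531093 (plus).
Hist1h1b: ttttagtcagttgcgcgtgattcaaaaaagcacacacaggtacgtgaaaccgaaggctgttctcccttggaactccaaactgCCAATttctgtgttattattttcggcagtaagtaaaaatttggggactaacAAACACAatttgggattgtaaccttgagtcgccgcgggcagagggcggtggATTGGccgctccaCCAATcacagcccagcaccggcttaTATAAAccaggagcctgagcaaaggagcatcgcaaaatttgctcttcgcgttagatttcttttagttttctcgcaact
Hist1h2ae: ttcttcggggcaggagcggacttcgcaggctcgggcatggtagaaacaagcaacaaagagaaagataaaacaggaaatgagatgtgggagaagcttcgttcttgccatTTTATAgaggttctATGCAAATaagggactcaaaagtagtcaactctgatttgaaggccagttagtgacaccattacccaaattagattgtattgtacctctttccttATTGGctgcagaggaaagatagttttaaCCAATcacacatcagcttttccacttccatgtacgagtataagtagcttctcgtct
Hist1h2ac: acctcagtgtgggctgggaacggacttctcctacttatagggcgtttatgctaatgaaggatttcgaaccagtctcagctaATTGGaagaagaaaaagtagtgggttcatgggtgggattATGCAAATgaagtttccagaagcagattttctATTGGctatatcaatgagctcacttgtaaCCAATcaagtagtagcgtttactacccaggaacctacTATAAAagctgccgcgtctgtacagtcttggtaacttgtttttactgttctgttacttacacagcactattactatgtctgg
Hist1h4h: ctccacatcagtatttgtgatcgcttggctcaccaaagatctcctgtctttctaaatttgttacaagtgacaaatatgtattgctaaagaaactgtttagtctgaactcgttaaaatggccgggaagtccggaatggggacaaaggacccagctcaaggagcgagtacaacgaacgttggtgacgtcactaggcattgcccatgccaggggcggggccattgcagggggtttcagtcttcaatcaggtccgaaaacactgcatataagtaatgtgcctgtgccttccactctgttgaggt
The window of Hist1h2ac reaches past the annotated start of Hist1h2bc, which is transcribed away from it on the plus strand. The window of Hist1h2ae likewise reaches past the annotated start of Hist1h2bg (chr13:23571396-23572013, plus). The Hist1h4h window holds none of the letters searched. These matches describe the sequences only, and binding was not measured here.

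In all, 66 members had a UMI in the 14373 cells that the authors annotated, with 223343 UMIs between them, or 0.182% of all UMIs. The H1 genes gave 38.2% of these, H2B 21.4%, H2A 17.8%, H4 14.1% and H3 8.39%. The counts were concentrated: Hist1h1b (42602 UMIs), Hist1h2bc (32597) and Hist1h1e (31845) gave 47.9% of member UMIs and the 25 most counted gave 93.1%, whereas 13 members had under 100 UMIs. Several genes cannot be told apart with certainty. Hist2h2aa1 and Hist2h2aa2, Hist2h3c1 and Hist2h3c2, and the H4 genes have near-identical copies, and 7 members overlap another gene on the same strand, such as Hist1h1e with Hist1h2be and Hist3h2a with Trim17.

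The members were next set out over the authors' cell clusters. The clusters were made from all genes, these among them, so levels across them are a description with no test, and in GPC_8 the 10 leading genes by fold were all members. Levels are given as CPM, the UMIs of a gene per 1000000 UMIs of the cells summed, without regard to transcript length. GPC_8 and GPC_9 are the proliferating glial progenitor clusters of P3. Markers of cycling cells (Mki67, Top2a, Cdk1, Ccnb1 and Pcna) summed to 2124 CPM in GPC_8 and 2041 CPM in GPC_9. The sums hid differences between the 5 genes: Ccnb1, a cyclin of mitosis, was at 160.4 CPM in GPC_8 and 385.2 CPM in GPC_9, and Pcna, the replication clamp, at 396.6 and 124.2 CPM.

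The members, by contrast, were high in GPC_8. In its 574 cells they took 1.06% of UMIs, with 0.655, 1.27 and 1.10% in P3 replicates 1 to 3, against 0.112% in the 512 cells of GPC_9. Of the 66 members with a UMI, 54 had their highest level in GPC_8, over 25 sums of a cluster and age with at least 20 cells. Hist1h1b, the H1.5 linker histone, was at 2134, 3192 and 3096 CPM in GPC_8 in the P3 libraries, and at 87.1, 62.1 and 79.8 CPM in GPC_9. Every GPC_8 value was far above every GPC_9 value. The largest P3 astrocyte cluster, AST_P3_0, had 14.6 CPM, and AST_3m_5, the largest adult astrocyte cluster, 0.898 CPM. GPC_8 also led for Hist1h1e (H1.4) with 1265 CPM, Hist1h2ae with 889 CPM and Hist1h4d with 689.6 CPM, where AST_P3_0 had 154.6, 7.94 and 53.0 CPM.

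Counted by cell, with every cell thinned to 2000 UMIs, a Hist1h1b UMI was found in 86.7% (95% Wilson interval 80.2 to 91.3), 94.7% (91.2 to 96.9) and 92.7% (87.9 to 95.7) of GPC_8 cells in P3 replicates 1 to 3. In GPC_9 the shares were 11.2, 10.4 and 11.1%, and in AST_P3_0 2.22, 2.35 and 3.15%. Unthinned, they were 97.9, 99.2 and 97.8% in GPC_8 and 38.2, 43.4 and 39.8% in GPC_9. LOW_20, a P3 cluster that led with neuronal genes such as Stmn2 and Eef1a2, gave the background of these libraries: 0 of 90 thinned cells had a UMI, which allows a share of up to 3.33%, at a median depth of 7742 UMIs (8297 in AST_P3_0, 12390 in GPC_9 and 17160 in GPC_8). The thinned AST_P3_0 shares lay below that limit and cannot be told from background, whereas those of GPC_8 and GPC_9 lay above it. Without thinning, AST_P3_0 was at 7.60, 10.8 and 8.94% in P3 replicates 1 to 3, above the limit, and LOW_20 was at 0% in each. The intervals and this limit cover counting error only.

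Outside the astroglial lineage, PER_6 had the highest member share of the P3 clusters with over 600 cells, GPC_8 aside, at 0.152, 0.387 and 0.312% of UMIs per library, with Hist1h1b at 806.6 CPM. END_7 endothelial cells were at 0.110% and P3 microglia at 0.0971%. END_13 was at 0.239%, from cells with a median of 1362 UMIs that were mostly of P3 replicate 3.

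**Figure D1:**
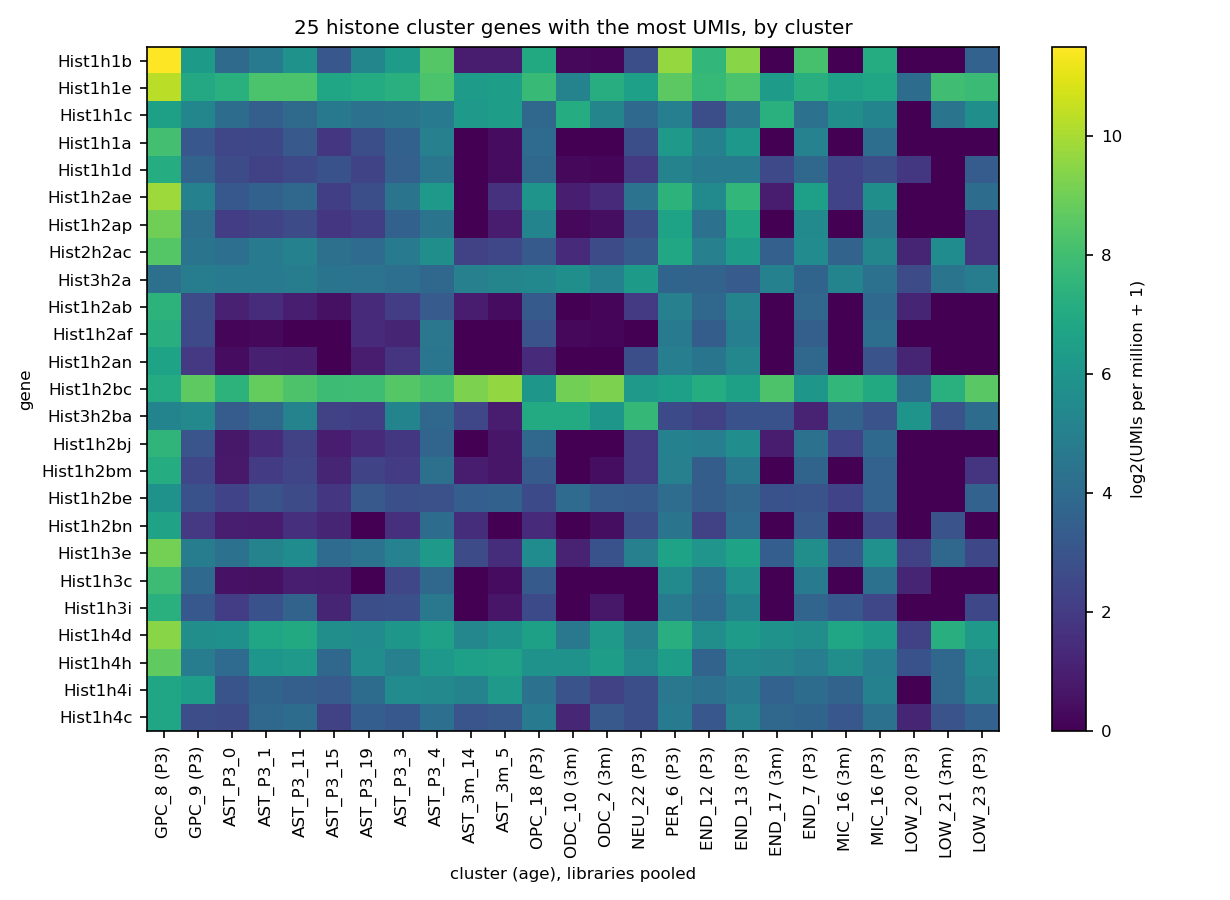
Heat map of the 25 members with most UMIs (rows) over clusters and ages with libraries pooled (columns); colour gives log2(CPM + 1). Of the 25, 21 are brightest in GPC_8, where Hist1h1b is at 2884 CPM, whereas Hist1h2bc is brightest in AST_3m_5 at 790.2 CPM and at 133.5 CPM in GPC_8.

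A small number of members did not follow this pattern. Hist1h2bc, an H2B gene, was highest in AST_3m_5 (790.2 CPM) and ODC_2 (596.5 CPM), at 396.2 CPM in GPC_9, and lower in AST_P3_0 (172 CPM) and GPC_8 (133.5 CPM). Its thinned share of cells was 63.6, 78.6 and 76.1% in AST_3m_5 in 3m replicates 1 to 3, against 7.69, 26.8 and 27.0% in GPC_8 in P3 replicates 1 to 3. Between GPC_8 and AST_3m_5 it thus ran opposite to Hist1h1b, whereas both genes were higher in GPC_9 than in AST_P3_0. Hist1h1c (H1.2) was highest in adult endothelial cells, END_17, at 155.3 CPM. Hist3h2ba was highest in the neuronal cluster NEU_22 at 199.5 CPM, followed by adult oligodendrocytes of ODC_10 at 128.1 CPM, and was lowest in AST_3m_5 at 0.898 CPM.

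Along the pseudotime that the authors fitted through astroglial cells, starting from cycling cells and cut into 20 bins, Hist1h1b and Hist1h2bc again took unlike courses. Pseudotime was fitted on the same cells and genes, these among them, so it is no independent view of the clusters and is given with no test. Bins 2 to 14 held P3 cells and bins 15 to 19 mostly 3m cells, so position and age cannot be told apart in the late bins. Hist1h1b stood at 3630 CPM in bin 2, 3813 in bin 3, 3087 in bin 5 and 1645 in bin 6, then at 183.2 in bin 7 and 42.3 in bin 8. The drop lay between bins 6 and 7. Top2a, a topoisomerase of G2 and mitosis, took a later course, with 380.7 CPM in bin 2, 1249 in bin 6, 1308 in bin 7 and 443.4 in bin 8. A lower second rise of Hist1h1b came at bin 11, at 255.7 CPM, where the libraries had 174.5, 324.7 and 241.2 CPM. Pcna stood at 227 CPM in bin 11 against 152.5 in bin 7, and Top2a at 82.6. From bin 16 on, Hist1h1b was at 3.92 CPM or less.

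Hist1h2bc again took another path, with 134.7 CPM in bin 2, 550 in bin 9, 191.3 in bin 14 and 839.4 in bin 16. Hist1h4i had both features, since it was at 146.3 CPM in bin 2, 5.56 in bin 14 and 73.5 in bin 17. Sub-clusters of the astroglial cells gave the same split: Hist1h1b was at 2723 CPM in sub-cluster 6, the start of pseudotime, and at 1.34 CPM in sub-cluster 7 of adult cells, where Hist1h2bc was at 127.4 and 857 CPM.

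**Figure D2:**
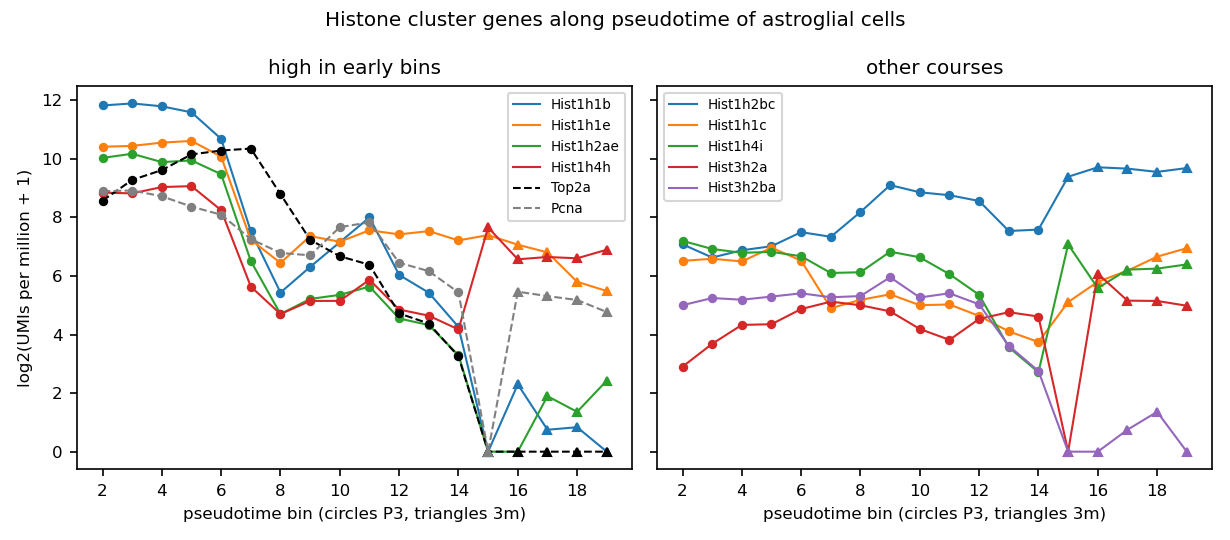
Level as log2(CPM + 1) by pseudotime bin, libraries pooled, with circles for P3 and triangles for 3m; members high in early bins with Top2a and Pcna (dashed) on the left, members of other courses on the right. Hist1h1b goes from 1645 CPM in bin 6 to 183.2 CPM in bin 7 while Top2a is at 1249 and 1308 CPM, and Hist1h2bc is at its highest, 839.4 CPM, in bin 16; bin 15 rests on 22 adult cells.

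To compare members across the cell cycle with a test, P3 astroglial cells of at least 2000 UMIs were classed without the members. A list of 20 DNA replication genes and a list of 20 mitosis genes were counted in each thinned cell, and both lists were then left out. Replication-high cells had at least 3 UMIs of the replication list and more than of the mitosis list, and mitosis-high cells at least 3 of the mitosis list and at least as many as of the replication list. Cells with few cycle UMIs had at most 1 of each. P3 replicates 1 to 3 held 157, 236 and 219 replication-high, 230, 333 and 343 mitosis-high and 1450, 2268 and 2117 few-cycle cells. Median depth was higher in the cycling classes, at 9732 to 15900 UMIs, than in few-cycle cells, at 6392 to 9020, and its part was not tested.

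Most members were higher in replication-high cells. Of 54 members tested, 48 were higher and 1 lower than in few-cycle cells by edgeR's quasi-likelihood test with library as a block (called where the adjusted p, padj, reached 0.05 and the log2(fold change) 1 in either direction), where 8.94% of all genes tested were called higher and 6.35% lower. The median log2(fold change) was 3.57 for members and -0.06 for all genes. Of the 54, 26 passed the filter on low counts through cycling cells alone and could only be called higher; of the 28 that also passed in few-cycle cells, 22 were higher and 1 lower. All 5 H1 members tested, 13 of 14 H2A, 11 of 14 H2B, 9 of 10 H3 and 10 of 11 H4 were higher. Hist1h1b was at 10.1, 22.4 and 19.1 CPM in few-cycle cells of P3 replicates 1 to 3, and at 860, 1501 and 1202 CPM in replication-high cells. The classes did not overlap, and the log2(fold change) was 6.17 ± 0.08 (SE, padj = 1.04e-24). Hist1h2ae rose from 5.72, 16.5 and 6.73 to 230.9, 474.7 and 228.9 CPM (5.08 ± 0.08, padj = 3.74e-23). Hist1h1e, already at 95.1, 244.1 and 193.2 CPM in few-cycle cells, rose by less, to 315.5, 693.6 and 508.9 CPM (1.58 ± 0.07, padj = 1.67e-15).

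A few members did not follow. Hist1h2bc was at 168.7, 345.2 and 285.1 CPM in few-cycle and 91.4, 192.1 and 175.4 CPM in replication-high cells, a log2(fold change) of -0.74 ± 0.09 that passed in p (padj = 1.22e-07) but not in size. Hist3h2a was lower (-1.05 ± 0.16, padj = 5.39e-06), a call that was lost without P3 replicate 1. Hist3h2ba (0.79), Hist2h2be (-0.01), Hist4h4 (0.96) and Hist2h3c1 (-0.34) were not called.

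Mitosis-high cells were also rich in members, with 0.354, 0.808 and 0.560% of UMIs in P3 replicates 1 to 3 against 0.267, 0.558 and 0.420% in replication-high cells. There, 50 of 54 were higher and 0 lower than in few-cycle cells, against 9.14% and 10.1% of all genes (0 lower also at an unadjusted p under 0.05 and with DESeq2), with a median of 4.03 for members and -0.04 for all genes. Of the 28 members that passed the filter in few-cycle cells too, 24 were higher. Hist1h1b was at 1002, 1821 and 1405 CPM (6.47 ± 0.08, padj = 1.63e-25), and Hist1h2bc at 202.2, 278.6 and 267.9 CPM (0.05 ± 0.08, padj = 0.613). Between the cycling classes, 0 members were higher in replication-high cells and 3 lower (Hist1h2bh, -1.25; Hist3h2a, -1.14; Hist2h2bb, -1.07), against 1.6% and 2.09% of all genes. The fold was below 0 for 53 of the 54, with padj no higher than 0.05 for 35 of them, most of these short of the change of 1 that a call needed. DESeq2 also gave 0 and 3, and 0 members were higher at an unadjusted p under 0.05. The 20-gene mitosis list includes genes that are already on in S phase, and mitosis-high cells comprised cells of GPC_8 (364) as well as of GPC_9 (453).

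With a list of 8 late mitosis genes in its place, chosen after seeing the data, the order of the leading H1 genes turned. Hist1h1b was then higher in replication-high than in late mitosis-high cells (1.14 ± 0.07, padj = 1.99e-13), as were Hist1h1a (1.07), Hist1h2ai (1.12), Hist1h3a (1.11) and Hist1h4a (1.24), and only Hist3h2a was called lower (-1.15). The order of members between replication and mitosis thus depended on the list. Against few-cycle cells, 50 of 54 members were higher in each class with the late list. Shares of all genes called with this list are not given, so these counts do not show whether members moved apart from other genes. In the main fits, 26 of 54 members passed the filter on low counts through cycling cells alone and could only be called higher. How many did so with the late list is not given.

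**Figure D3:**
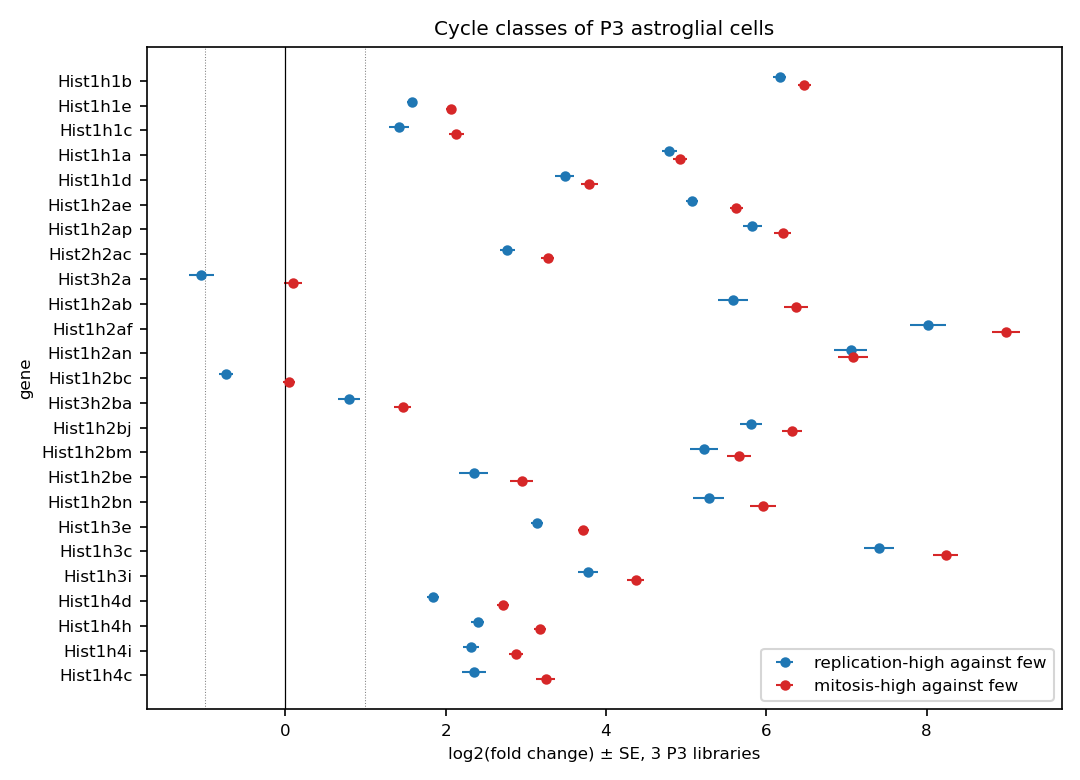
The log2(fold change) (x axis, bars give the SE) of the 25 members with most UMIs (y axis), replication-high (blue) and mitosis-high (red) against few-cycle cells of the 3 P3 libraries; dotted lines mark a change of 1 either way. Most members lie to the right of 1, with Hist1h1b at 6.17 and 6.47, while Hist1h2bc lies at -0.74 and 0.05 and Hist3h2a at -1.05 and 0.10.

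Genes that serve histones outside the clusters were compared in the same cells from lists. Of 11 histone variant genes, which are expressed outside S phase as well, 4 were higher in replication-high cells (Cenpa, H2afx, H2afy2 and H2afz) and 6 in mitosis-high cells, with Cenpa, the centromeric H3, at 6.29 and H2afx, the damage-signalling H2A, at 4.08. Of 20 tested genes for histone mRNA processing and chaperones, 11 were higher in replication-high cells, among them Slbp, which binds the stem-loop (2.12), and the chromatin assembly subunits Chaf1a and Chaf1b, and 8 in mitosis-high cells. None of either list was called lower, with 0 of both at an unadjusted p under 0.05 in replication-high cells and 1 of each in mitosis-high cells.

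The ages were compared next, in all astroglial cells. Sums per library held 22327104 to 30617140 UMIs at P3 and 1157485 to 1843998 at 3m, so low members were measured with less precision at 3m. Of 52 members tested, 7 were higher and 31 lower at 3m, where 15.8% of all genes were called higher and 16.3% lower. The median log2(fold change) was -2.76 for members, or -2.55 with the 5 that had no UMI at 3m set at their bound, and -0.04 for all genes. Of the 52, 9 passed the filter on low counts through P3 alone, 5 of them with no UMI at 3m, and could only be called lower; of the 43 that passed at both ages, 7 were higher and 22 lower. In a sum over cells, fewer cells that make a transcript and less of it per cell cannot be told apart, and there were no 3m cells in GPC_8, GPC_9 or the cycling classes. All 20 genes of the replication list and all 20 of the mitosis list were also lower.

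By class, 4 of 5 H1, 10 of 13 H2A, 9 of 13 H2B, 6 of 10 H3 and 2 of 11 H4 members were lower. Hist1h1b was at 294.8, 539.4 and 404.1 CPM at P3 and at 0, 0.542 and 2.04 CPM at 3m (-8.66 ± 0.48, padj = 2.30e-08). Hist1h1e was at 179.8, 440.2 and 310.6 against 23.3, 82.4 and 140.6 CPM, the groups again apart (-1.72 ± 0.46, padj = 0.00743), but this call was lost with DESeq2. No adult UMI was found for Hist1h2af, Hist1h2an, Hist1h3b, Hist1h2ai and Hist1h2ag, which were at least 31.4, 22.0, 9.83, 5.94 and 3.87-fold lower, from a floor of 3 UMIs over the 3m libraries.

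The members that were higher at 3m came from several classes: Hist1h1c, Hist1h2bc, Hist2h2be, Hist2h3c1, Hist2h3c2, Hist1h4i and Hist2h4. Hist1h2bc, the most abundant of them, was at 166.8, 321.5 and 271.2 CPM at P3 and 643.6, 749.5 and 802.7 CPM at 3m (1.71 ± 0.26, padj = 0.000115). Hist1h1c was at 41.9, 26.5 and 19.7 against 131.3, 66.2 and 61.1 CPM (1.71 ± 0.30, padj = 0.00044). All 3m values of both genes were above all P3 values. Oligodendrocyte markers (Mog, Mag, Mbp, Mobp and Opalin) also differed with age in these sums, at 1.46 to 1.63 CPM at P3 and 573.2 to 1507 CPM at 3m, and of the astroglial clusters were highest in AST_3m_14 (3943 CPM). Without its cells, a setting chosen after seeing the data, they were at 90.9 to 243.7 CPM at 3m, and Hist1h2bc (1.82, padj = 3.52e-05) and Hist1h1c (1.70, padj = 0.000383) were still called. Hist1h2bc was lower in the oligodendrocytes of ODC_2 than in AST_3m_5, as given above. Hist1h1c was at 138.7 CPM in ODC_10 and 36.0 CPM in ODC_2, against 84.1 CPM in AST_3m_5. The part of oligodendrocyte RNA in the adult values of both genes was not tested. The call of Hist1h4i (1.03) was lost with 7 alternatives and that of Hist2h2be (1.14) with 6. Of 11 histone variant genes 10 were lower, as were 14 of 20 tested genes of histone supply; 0 of both lists were higher, also at an unadjusted p under 0.05.

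The comparison was repeated in astroglial cells with few cycle UMIs at each age, 5835 cells at P3 and 896 at 3m. Here 28 members were tested, and 11 were higher and 7 lower at 3m, against 14% and 12.6% of all genes. The median was 0.57 for members and -0.03 for all genes. Of the 28, 2 passed the filter on low counts through P3 alone (Hist1h1a and Hist1h1d) and 2 through 3m alone (Hist1h4j and Hist2h4). Each of these could only be called in that direction, and was. Of the other 24, 9 were higher and 5 lower. H4 members were higher in 4 of 8 cases (Hist1h4h, Hist1h4i, Hist1h4j and Hist2h4), H2B in 3 of 5 (Hist1h2bc, Hist1h2be and Hist2h2be) with 1 lower (Hist3h2ba), and H3 in 2 of 4 (Hist2h3c1 and Hist2h3c2) with 1 lower (Hist1h3e). H1 members were lower in 3 of 5 (Hist1h1a, Hist1h1b and Hist1h1d) and higher in 1 (Hist1h1c), and H2A lower in 2 of 6 (Hist1h2ae and Hist2h2ac) and higher in 1 (Hist1h2ac).

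Hist1h2bc was at 168.7, 345.2 and 285.1 CPM at P3 and 644.1, 760.8 and 805.2 CPM at 3m (1.66 ± 0.26, padj = 0.000136). Hist1h4i was at 10.5, 18 and 12.1 against 62.9, 57.6 and 72.5 CPM (2.43 ± 0.24, padj = 1.80e-06), and Hist1h1c at 24.98, 13.4 and 10.9 against 131.2, 67.5 and 62.3 CPM (2.59 ± 0.31, padj = 1.30e-05). All 3 had every adult library above every P3 library. Among scarcer genes, Hist2h4 was at 0.977, 1.22 and 0.718 against 7.19, 8.05 and 9.42 CPM (3.25 ± 0.40, padj = 1.75e-05). Having passed the filter on low counts through 3m alone, it could only be called higher, as could Hist1h4j. Hist2h3c2, a near-identical copy of Hist2h3c1, was at 1.54, 1.17 and 0.914 against 15.3, 13.0 and 5.80 CPM (3.41 ± 0.41, padj = 1.26e-05). Hist1h4j (3.69), Hist1h2ac (1.73), Hist1h2be (1.35) and Hist2h2be (1.07) were also scarce, none above 17.1 CPM in any library, and Hist1h2be and Hist2h2be lost the call with 3 and 8 alternatives.

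Hist1h4h was at 4.96, 50.3 and 23.1 CPM at P3 and 81.8, 95.3 and 101.5 CPM at 3m (2.00 ± 0.53, padj = 0.00699). The spread between the P3 libraries was 10.1-fold, and the call was lost with DESeq2. Gm42418, a gene annotated over ribosomal RNA repeats and no member, was ordered alike at 818.4, 6952 and 2100 CPM at P3 and was at 9850, 50590 and 53370 CPM at 3m. The part of this in the result was not tested.

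Hist1h1b was at 10.1, 22.4 and 19.1 CPM in these P3 cells and had 0, 1 and 2 UMIs at 3m, a ratio of P3 to 3m of 24.4 (95% counting interval from 8.31). No adult UMI was found for Hist1h1a, at least 6.21-fold lower, and 1 for Hist1h1d (ratio 23.1, from 4.12). Hist1h1a and Hist1h1d passed the filter on low counts through P3 alone and could only be called lower. Hist3h2ba was at 19.6, 15.6 and 10.5 against 0, 1.24 and 2.17 CPM (-3.43 ± 0.56, padj = 0.000198), and Hist2h2ac at 15.6, 25.2 and 20.1 against 0.898, 4.95 and 5.80 CPM (-2.11 ± 0.41, padj = 0.00081). Each of these had its P3 libraries above its 3m libraries. Hist1h1e was at 95.1, 244.1 and 193.2 against 23.4, 77.4 and 140.6 CPM and was not called (-0.92 ± 0.44, padj = 0.103). The class did not remove all cycling RNA, since 13 of 17 tested genes of the replication list and 9 of 12 of the mitosis list were also lower at 3m in it, and their part in these falls was not tested. Hist1h2ae and Hist1h3e lost their calls without 3m replicate 1 or 2, and Hist1h2ae also without the cells of AST_3m_14 (padj = 0.0527).

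**Figure D4:**
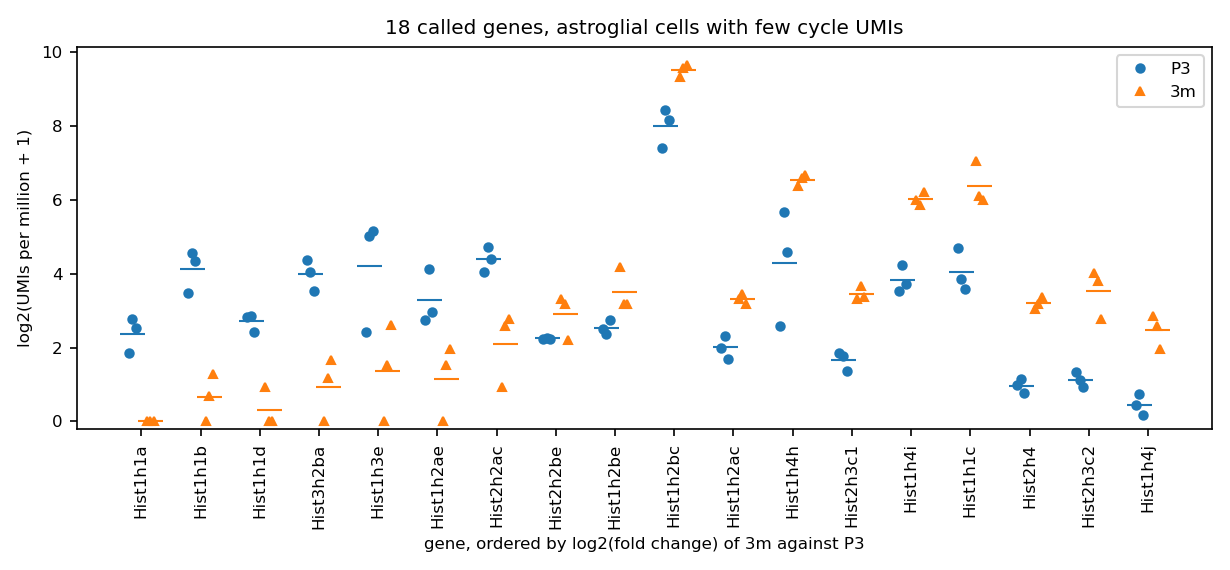
Level as log2(CPM + 1) of the 18 members called between ages in few-cycle astroglial cells, ordered by log2(fold change); each point is a library (P3 circles, 3m triangles) and each line the mean of its 3 points. Hist1h2bc, Hist1h1c, Hist1h4i and Hist2h4 have every 3m point above every P3 point, Hist1h1b, Hist3h2ba and Hist2h2ac the reverse, and the points of Hist2h2be and Hist1h3e overlap. By the filter on low counts, Hist2h4 and Hist1h4j could only be called higher, and Hist1h1a and Hist1h1d only lower.

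The annotated transcripts of the members that rose and fell with age in few-cycle cells were set side by side. The 11 that were higher at 3m had a median longest transcript of 1560 bases and 8 of them exceeded 1000 bases, the 7 that were lower had a median of 741 bases with 1 over 1000, and the 10 not called had a median of 703 with 4 over 1000. Over all 67 members the median was 539 bases, and 18 exceeded 1000. By the filter on low counts, some of these members could be called in 1 direction only. They were Hist2h4 (1630 bases) and Hist1h4j (774) among the higher, and Hist1h1a (741) and Hist1h1d (7425) among the lower. Where a loop was found, the annotated transcript went on for a median of 1004 bases after it in the members that were higher (8 with a loop). The median was 169 in those that were lower (5 with a loop), 454 in those not called (9 with a loop) and 91 over all members (44 with a loop). Hist1h1d, which was lower, had 4884 bases after its loop. Hist2h4 (chr3:96261682-96263311), for example, runs on for 1257 bases and Hist1h1c (chr13:23738808-23740367) for 840, whereas Hist1h4h (chr13:23531050-23531519) has 46. This is a description of the annotation with no test, and which ends the captured molecules had is not given by counts per gene.

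**Figure D5:**
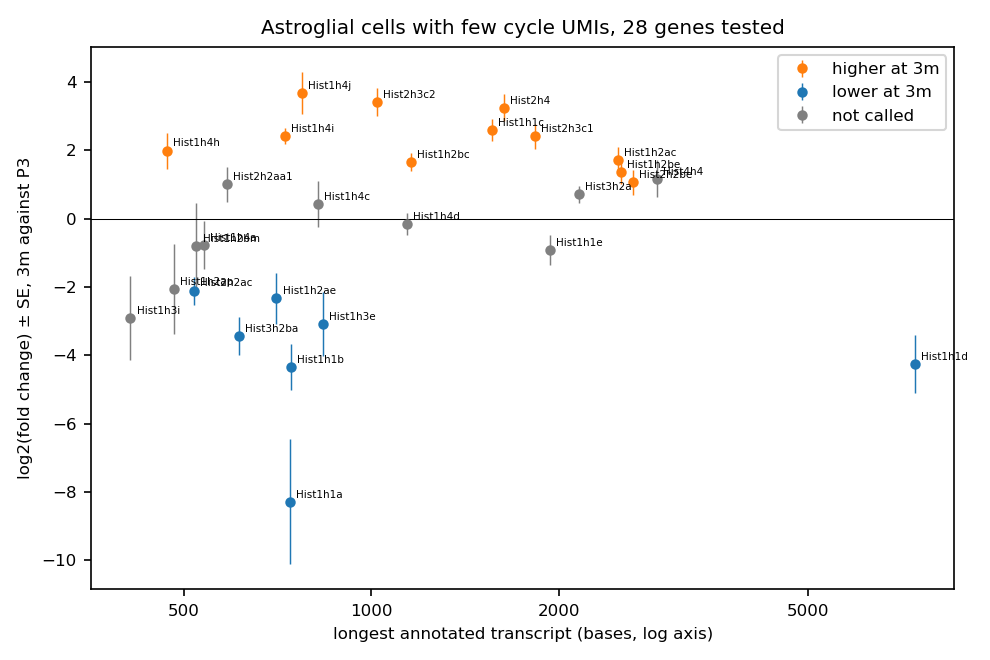
The log2(fold change) of 3m over P3 in few-cycle astroglial cells (y axis, bars give the SE) against the longest annotated coding transcript in bases (x axis, log scale), for the 28 members tested. Of the 11 members higher at 3m, 8 lie above 1000 bases, and of the 7 lower at 3m, 1 does. Hist2h4, Hist1h4j, Hist1h1a and Hist1h1d could be called in 1 direction only. The fitted value of Hist1h1a, with 0 adult UMIs, is no bound.

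In sums of all annotated cells, where the mix of cell types differs between ages, 55 members were tested, and 6 were higher and 29 lower at 3m, against 17.8% and 16.4% of all genes. Their median was -2.46, against -0.01 for all genes. Of the 55, 14 passed the filter through P3 alone, and of the other 41, 6 were higher and 15 lower. Hist3h2ba took the opposite direction to that in astroglial cells: it was at 21.9, 20.02 and 12.6 CPM at P3 and 94.9, 45.7 and 37.1 CPM at 3m (1.91 ± 0.36, padj = 0.00208), where astroglial cells gave 28.4, 20.1 and 15.9 against 0.864, 2.17 and 2.04 CPM (-3.39 ± 0.43, padj = 3.07e-05). Adult oligodendrocytes, in which it stood at 66.7 CPM (ODC_2) and 128.1 CPM (ODC_10), were present at 3m. Hist1h4i, higher at 3m in astroglial cells, was not called over all cells (-0.25, padj = 0.501).

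Microglia of MIC_16, brain macrophages with cells in every library, were the only other type that allowed the age test, from 34, 44 and 46 cells at P3 and 20, 23 and 17 at 3m. With 4 members tested, 0 were higher and 1 lower, against 6.68% and 3.43% of all genes (1 was higher at an unadjusted p under 0.05, and 0 with DESeq2). The member called was Hist1h1b, at 135.3, 72.9 and 210.6 CPM at P3 and with 0 UMIs at 3m, at least 11.6-fold lower (padj = 0.00174). It passed the filter on low counts through P3 alone and could only be called lower. The call was lost without P3 replicate 1 or 3. Hist1h2bc was at 92.6, 130.5 and 148.4 against 266.6, 168.8 and 112.4 CPM, and its groups overlapped (0.74 ± 0.32, padj = 0.155).

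The difference between the age effects of microglia and astroglial cells was tested as an interaction, with library as a block since each library gave both sums. Of 23 members tested, 1 was called higher (Hist1h4d) and 2 lower (Hist1h2bc and Hist1h4i) in microglia relative to astroglial cells, against 1.86% and 5.15% of all genes, whose median difference was -0.36. The difference for Hist1h2bc was -1.35 ± 0.35 (padj = 0.00671), for Hist1h4i -2.75 ± 0.81 (padj = 0.0219) and for Hist1h4d 1.56 ± 0.43 (padj = 0.0133). Each lost its call without at least 2 of the 6 libraries in turn, and Hist1h4i rested on 3 UMIs in adult microglia.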

How the data were processed

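The authors mapped reads to mm10, counted UMIs per gene with Cell Ranger and deposited the merged raw counts, with a table of cells that passed over 500 genes and under 10% mitochondrial UMIs, giving cluster, sub-cluster, pseudotime bin and the pseudotime score (deposited by the authors from Slingshot, no unit). This filter, applied to the counts, left the same 14373 of 16690 barcodes. Doublets were not called again. Ages and replicate numbers came from the labels.

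UMIs were summed per library over the cells of a group. Ages (3m over P3) and cycle classes were compared with edgeR 4.0.16 (quasi-likelihood test, two-sided, TMM, filterByExpr, Benjamini-Hochberg over all genes tested, R 4.3.3). Calls needed an adjusted p no higher than 0.05 and a log2 fold change of 1 or more in size. SE is the size of the log2 fold change over the square root of F. Alternatives were DESeq2 1.42.0, other scaling, filters, thinning and leaving out each library. Calculations were tested on simulated data. CPM use plain totals. Named were the 25 members with most UMIs and any member called. Sequences came from GENCODE transcripts and RefSeq promoters. A marker gene of the lists is not reported here and was left out of their sums. The members and lists were chosen with earlier results of these data known.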

Additional observations from a re-analysis of the deposited data

Results flagged for a closer look

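In the test of age effects between microglia and astroglial cells, the log2 difference (microglia minus astroglial cells) was -1.35 for Hist1h2bc, 1.56 for Hist1h4d and -2.75 for Hist1h4i, each past the threshold for a difference between cell types. Barcodes that failed the authors' filter on cells and carry no cluster name (2317 barcodes with 6320550 UMIs) held 5752 UMIs of histone cluster genes, or 0.091% of their UMIs.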

How the results depend on the processing

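The count of members called by age in astroglial cells (38) was 25 to 34 when a library was left out, lowest without P3 replicate 3, and 18 with sums thinned to the smallest library, where 23 members were tested. In few-cycle cells (18) it was 12 to 20, and 8 thinned, with 12 tested. Without the cells of AST_3m_14 these counts were 34 and 17. In microglia (1) it was 3 with no filter on low genes, 0 thinned, when no member was tested, and 0 to 1 without a library. The interaction (3) gave 0 to 3 without a library, 0 without 3m replicate 3. Of replication-high against mitosis-high (3 lower), 1 was called with at least 5 UMIs of a list, 5 were called thinned to the smallest sum, 22, all lower, with cells thinned to 4000 UMIs, 6 with the late mitosis list, and 3 to 6 without a library (6 without P3 replicate 3). With the late list the fold of Hist2h2bb turned to 0.43 (padj = 0.0206). Shares of all genes called under these settings are not given, so the counts do not show whether members moved apart from other genes. The cause of these changes was not tested.

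The main fits by age did not pair samples by replicate number. Correlations of the deviations of same-numbered astroglial sums were 0.21, 0.10 and 0.04, and those of sums of all annotated cells 0.48, 0.49 and -0.02. Between unlike numbers they ran from -0.17 to 0.14 in astroglial sums and from -0.52 to 0.16 in all annotated cells. Whether samples of the same number shared a step of the work was not tested. With the replicate number as a block the counts by age were 42 in astroglial cells, 20 in few-cycle cells, 43 in all cells and 1 in microglia. Without the library block the cycle comparisons gave 47 (replication-high against few), 49 (mitosis-high against few) and 0 (between the cycling classes). These counts with and without a block are also given without the share of all genes called.

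Scaling to library totals alone moved the median of all genes in astroglial cells from -0.04 to -0.24 and the share of calls that were higher from 49.3% to 38.6%; members were then 5 higher and 31 lower. In few-cycle cells that share moved from 52.5% to 39.5%, with members 10 higher and 9 lower. In microglia with no filter it was 39% against 66.1%. Depth limits the adult sums, which held fewer UMIs than those of P3.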

Other observations

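The P3 libraries differed from each other in histone cluster genes more than in most genes. Over 5974 genes of at least 20 CPM in few-cycle P3 astroglial cells, the highest library was at a median of 1.31 times the lowest. For the 7 members among them the median was 2.05. Only 5 of these genes differed by 5-fold or more, and 2 were members, Hist1h4h (10.1-fold) and Hist1h3e (8.04-fold). The others were Gm42418 and AY036118, annotated over ribosomal RNA, and Nkx6-2, a homeobox factor, at 8.49, 5.50 and 6.57-fold. These genes were chosen after their values were seen.

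The order of the libraries recurred in other cells. Hist1h3e was at 4.33, 31.6 and 34.8 CPM in few-cycle astroglial cells of P3 replicates 1 to 3, at 108.6, 631.1 and 833.1 CPM in GPC_8, at 19.8, 138.7 and 173.3 CPM in PER_6 and at 13.0, 57.9 and 82.9 CPM in END_7. Hist1h4h was at 95.6, 654.2 and 317.6 CPM in GPC_8, 20.9, 160.6 and 99.1 CPM in PER_6 and 12.1, 51.9 and 33.2 CPM in END_7. In each, P3 replicate 1 was lowest. Hist1h1c went the other way in few-cycle astroglial cells, with P3 replicate 1 (24.98 CPM against 13.4 and 10.9) and 3m replicate 1 (131.2 CPM against 67.5 and 62.3) highest of their age. The cause was not tested.

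The cells of PER_6 showed a steep rise of Hist1h1b with the cell cycle classes, an addition made after seeing the data and given with no test. Hist1h1b was at 4.66, 8.27 and 0 CPM in few-cycle cells of P3 replicates 1 to 3, at 158.6, 1675 and 364.2 CPM in replication-high cells (17, 19 and 26 cells) and at 2211, 5018 and 3081 CPM in mitosis-high cells (33, 17 and 31 cells). In END_7 endothelial cells it was at 14.9, 8.63 and 23.1 CPM in few-cycle, 657.1, 448.9 and 497.8 CPM in replication-high and 530.2, 842.4 and 797.7 CPM in mitosis-high cells. Hist1h2bc in PER_6 few-cycle cells was at 80.1, 135.1 and 83.6 CPM, and at 36.3, 26.4 and 26.4 CPM in replication-high cells.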
